A study of Caenorhabditis elegans with 30 samples.

Results

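Transcript levels of the glutathione S-transferase (GST) genes were followed in whole Caenorhabditis elegans of 6 genotypes. The members were all genes whose common name in the deposited tables is gst, gsto or gstk with a number, 49 of the 20484 genes listed. They are 44 gst, 3 gsto and 2 gstk genes. The rule used names alone, not values, though earlier results of these data were known. GSTs join the tripeptide glutathione to reactive electrophiles, such as products of lipid peroxidation and many toxins, so that these can be exported from the cell. The worm has a large, expanded family. Many of its members are induced through the transcription factor SKN-1, the worm counterpart of mammalian NRF2, in stress, and several respond to DAF-16, the FOXO factor that is active when insulin signalling is low. Omega class enzymes (gsto) share the fold of the cytosolic GSTs but use a cysteine in the active site, and kappa class enzymes (gstk) have a different fold.

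Populations were synchronised by bleaching, and the worms were harvested at late L4, the last larval stage. Wild type (WT) was the control. The H3.3 double mutant, written his-72;his-71, carries allele tm2066 of his-72 and allele ok2289 of his-71, genes for histone H3.3, the form of H3 that enters chromatin outside replication. Other H3.3 genes remain in it, so "without H3.3" means here without these genes. The daf-2 mutant has allele e1370 of the insulin receptor gene, and the nuo-6 mutant has allele qm200 of a gene for a subunit of respiratory complex I. Both are long-lived. The daf-2 triple mutant and the nuo-6 triple mutant add the tm2066 and ok2289 alleles to e1370 or qm200. Each genotype had 5 biological replicates, 30 samples in all.

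The deposited tables give 1 FPKM value per gene and genotype, that is, fragments mapped to a gene after correction for transcript length and library size. Values per replicate were not analysed here, so no spread, test or p-value can be given, and "higher" and "lower" describe ratios of the authors' values alone. Sequencing depth is unknown. A gene was compared where its mean over the 6 genotypes was at least 5 FPKM and neither value was listed at 0. The words higher and lower, in counts of genes, mean a ratio of 2 or more with 5 FPKM or more in the genotype with the larger value. Of the 49 members, 34 were compared and 15 had a lower mean, and no member was listed at 0 in any genotype. A high value in 1 genotype can carry a gene past this filter. Thus gst-31, gst-16 and gst-35 passed it only through their daf-2 value, and gst-9 only through its nuo-6 value. They are counted among the members higher in those mutants, and the same filter was applied to all genes. The first count of members in each comparison stands beside the share of all compared genes that met the same rule. Worms were taken whole, so fewer cells of a type and less RNA per cell cannot be told apart. The genotype labels were checked on his-71 and his-72, which had between 223 and 418 FPKM in the 3 genotypes that carry them and at most 0.408 FPKM in the others. The daf-2 and nuo-6 alleles were not checked in this way.

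The family as a whole was highest in daf-2. Summed over all 49 members, it had 1605 FPKM in WT, 1566 in the H3.3 double mutant, 5667 in daf-2, 1954 in the daf-2 triple mutant, 3609 in nuo-6 and 2870 in the nuo-6 triple mutant. This was 0.123% of all FPKM in WT, 0.128% in the H3.3 double mutant, 0.438% in daf-2, 0.209% in the daf-2 triple mutant, 0.239% in nuo-6 and 0.244% in the nuo-6 triple mutant. Both long-lived mutants thus stood above WT, and the daf-2 triple mutant stood closer to WT than to daf-2. Of the 34 compared members, 17 had their highest value in daf-2, 11 in nuo-6, 4 in the nuo-6 triple mutant, 1 in the daf-2 triple mutant, 1 in WT and 0 in the H3.3 double mutant. Among all 11173 genes with that mean and no value at 0 in any genotype, 26.3% were highest in daf-2 and 25.9% in nuo-6. The lowest value of a member was in the H3.3 double mutant for 12, in the daf-2 triple mutant for 11 and in WT for 9, beside 6.65%, 26.5% and 10.5% of all those genes. The ratio of the highest to the lowest genotype had a median of 5.66 over the compared members and 2.40 over all those genes, and it was at least 4 for 25 of 34 members and for 23.9% of all genes.

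**Figure D1:**
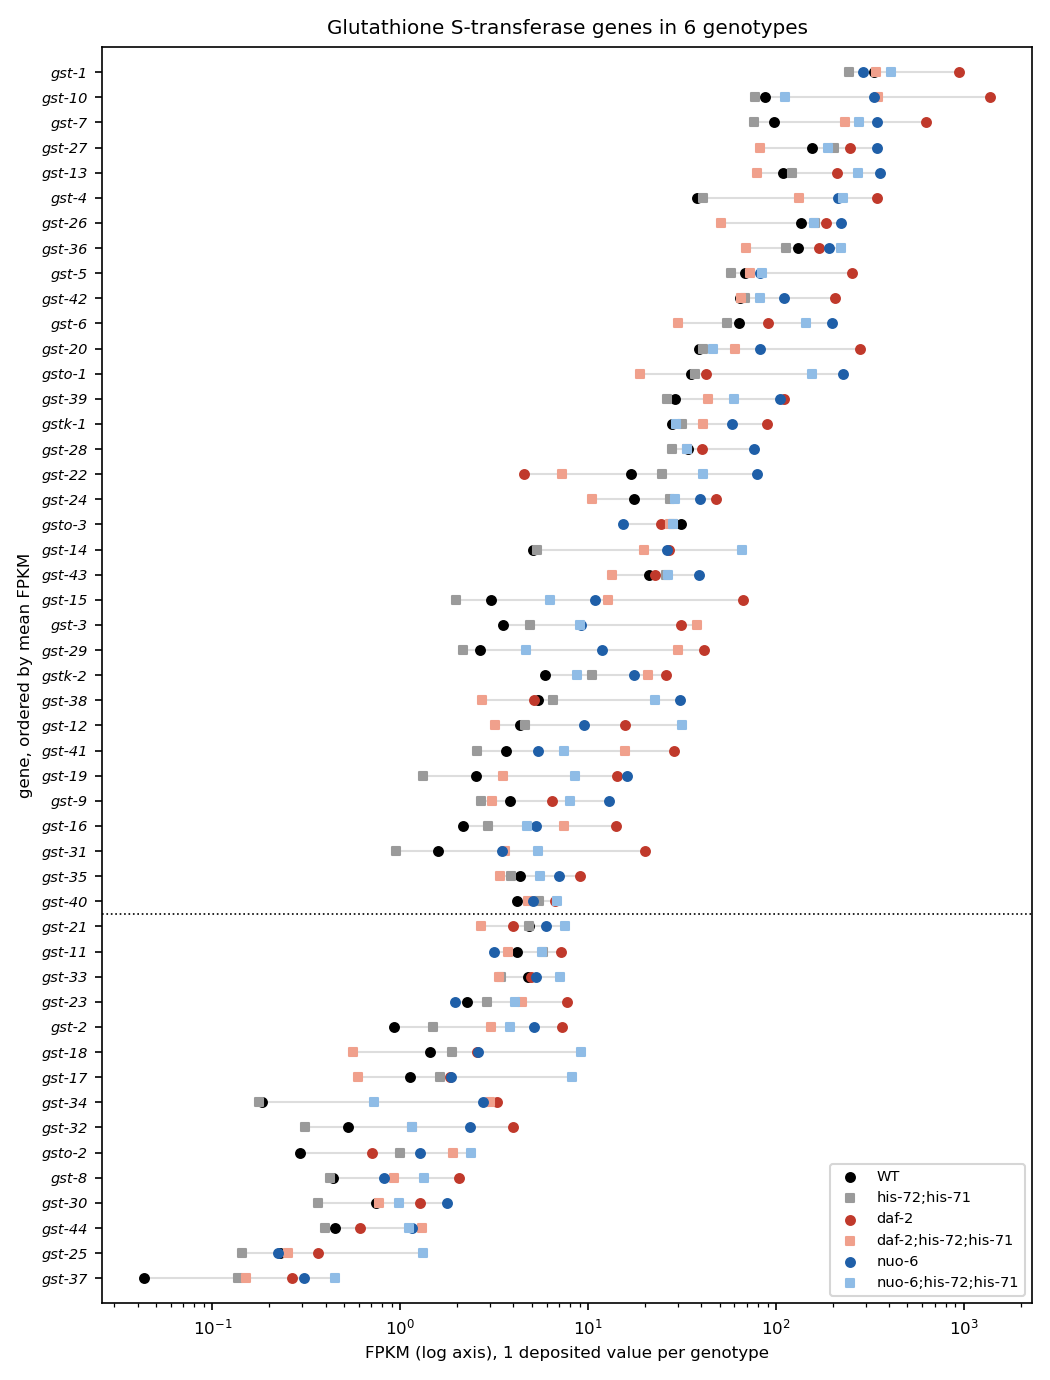
FPKM of the 49 glutathione S-transferase genes (log axis) in the 6 genotypes, 1 point per genotype and gene, with a grey line from the lowest to the highest value and genes ordered by their mean. Circles are genotypes with H3.3 and squares those without. Genes under the dotted line are the 15 with a mean under 5 FPKM. Among the 34 genes above that line, the red circle (daf-2) is the rightmost point for 17.

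A few members held much of the family's FPKM. In WT the 6 members with the highest mean made up 50.9% of the family's summed FPKM, and in daf-2 they made up 66.0%. The most abundant was gst-1, annotated as a pi class enzyme, with 330.3 FPKM in WT, 244 in the H3.3 double mutant, 944 in daf-2, 339 in the daf-2 triple mutant, 289.8 in nuo-6 and 407 in the nuo-6 triple mutant. Next came gst-10, which conjugates the lipid peroxidation product 4-hydroxynonenal in vitro, with 87 FPKM in WT, 77.2 in the H3.3 double mutant, 1370.2 in daf-2, 349 in the daf-2 triple mutant, 332 in nuo-6 and 111 in the nuo-6 triple mutant. gst-10 lies on chromosome V from 2561082 to 2564708. Its daf-2 value was the highest of any member in any genotype, and gst-10 ranked under gst-1 in WT and above it in daf-2 and nuo-6. gst-7, a predicted GST, followed with 97.5 FPKM in WT, 76.6 in the H3.3 double mutant, 625 in daf-2, 232 in the daf-2 triple mutant, 343 in nuo-6 and 274 in the nuo-6 triple mutant. gst-27 and gst-13 are listed without a functional description. In the order WT, H3.3 double mutant, daf-2, daf-2 triple mutant, nuo-6 and nuo-6 triple mutant, gst-27 had 155, 202, 246, 82.4, 342 and 188 FPKM and gst-13 had 109, 121, 210.2, 79.2, 358 and 273 FPKM. Unlike gst-1, gst-10 and gst-7, both were highest in nuo-6. gst-4, whose promoter is a standard reporter of SKN-1 activity, lies on chromosome IV from 10142161 to 10143101. It had 37.9 FPKM in WT, 41 in the H3.3 double mutant, 345 in daf-2, 132 in the daf-2 triple mutant, 212 in nuo-6 and 226 in the nuo-6 triple mutant. Its values outside WT and the H3.3 double mutant lay between 132 and 345 FPKM, all above the values of those controls.

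In daf-2 compared with WT, 21 of 34 members were higher and 1 lower, while 12.8% of all 11181 compared genes were higher and 12.7% lower. The median log2 ratio was 1.68 over the members (3.19-fold) and -0.03 over all compared genes, and 31 of 34 members had a ratio above 1. Of the 4 members with the largest ratios, gst-15, gst-29 and gst-31 were scarce in WT and gst-10 was abundant there. gst-15 had 3.03, 1.98, 66.6, 12.8, 10.9 and 6.28 FPKM in the order given above, a daf-2 value 22-fold that of WT. gst-10 was 15.8-fold higher, and gst-29 was 15.5-fold higher, with 2.67, 2.17, 41.3, 29.9, 11.9 and 4.67 FPKM. gst-31 was 12.8-fold higher, with 1.58, 0.95, 20.2, 3.61, 3.48 and 5.42 FPKM, and passed the mean filter only through daf-2. gst-15 and gst-31 thus stood highest in daf-2, with smaller values, still above WT, in the daf-2 triple mutant and both nuo-6 genotypes. gst-29 kept a high value, 29.9 FPKM, in the daf-2 triple mutant. gst-4 was 9.1-fold and its neighbour gst-3 8.82-fold higher, gst-3 having 3.54, 4.9, 31.2, 38.1, 9.19 and 8.99 FPKM. gst-3 was the one compared member whose highest value was in the daf-2 triple mutant. gst-41 (3.65, 2.57, 28.7, 15.8, 5.41 and 7.43 FPKM) was 7.86-fold and gst-20 (39.1, 40.8, 281, 60.1, 82.1 and 46.4 FPKM) 7.2-fold higher. The other 13 higher members had ratios between 2.06-fold (gst-35) and 6.54-fold (gst-16), gst-7, gst-1 and gst-5 among them. gst-22 alone was lower, 3.71-fold, with 16.9, 24.6, 4.55, 7.21, 78.9 and 40.6 FPKM. gst-22 shares its listed locus with F21H7.12 on the opposite strand, and how fragments were divided between them is not given in the sources used here. Germline markers summed to 132 FPKM in daf-2 and 529 in WT, with 10 of 10 lower, and intestine markers to 4913 and 7825 FPKM, with 2 of 10 higher and 2 lower. Epidermis markers summed to 2562 FPKM in daf-2 and 6885 in WT, with 9 of 10 lower, oocyte markers to 23.7 and 79.6 FPKM, with 6 of 10 lower, and adult markers to 6.30 and 54.2 FPKM, with 4 of 7 lower. Sperm markers summed to 1.26 and 49.5 FPKM, with 4 of 4 compared genes lower. Neuron markers were higher with the GSTs, at 955 and 532 FPKM, with 2 of 10 higher and a median log2 ratio of 0.92, and muscle markers summed to 6323 and 7084 FPKM. Their part in the GST ratios was not tested.

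In nuo-6 compared with WT, 23 of 34 members were higher and 1 lower, beside 16.6% and 5.26% of all 11195 compared genes. The median log2 ratio was 1.23 over the members and 0.07 over all genes. Both comparisons use the same WT values. gsto-1, an omega class enzyme with thiol oxidoreductase and dehydroascorbate reductase activity, had the largest ratio. It had 35.3 FPKM in WT, 37 in the H3.3 double mutant, 42.2 in daf-2, 18.9 in the daf-2 triple mutant, 226 in nuo-6 and 155 in the nuo-6 triple mutant, so that nuo-6 was 6.4-fold and daf-2 1.19-fold above WT. It shares its listed locus with kle-2. gst-19 was 6.32-fold higher, with 2.54, 1.32, 14.2, 3.53, 16 and 8.47 FPKM. gst-38, for which the deposited annotation describes an intestinal reporter, was 5.73-fold higher, with 5.38, 6.49, 5.17, 2.74, 30.9 and 22.8 FPKM. gst-38 and gsto-1 were thus high in both nuo-6 genotypes and near or under the WT value in both daf-2 genotypes. gst-4 was 5.6-fold higher, gst-14 5.17-fold and gst-22 4.67-fold, the last in the opposite direction to its daf-2 ratio. gst-6 was 3.15-fold higher, with 63.1, 54.9, 90.9, 29.9, 199 and 144 FPKM. The remaining 16 higher members had ratios between 2.08-fold (gstk-1) and 4.44-fold (gst-29). gsto-3, a second omega class gene, was 2.03-fold lower, with 31.3, 28.3, 24.4, 27.2, 15.4 and 28.4 FPKM. With values scaled to equal sums per genotype, 16 members were higher, beside 12.6% of all genes. Markers of other tissues stood apart from WT as well. Oocyte markers summed to 458 FPKM in nuo-6 and 79.6 in WT (8 of 10 higher) and adult markers to 2707 and 54.2 FPKM (7 of 7 higher), while intestine markers summed to 8104 and 7825 FPKM and muscle markers to 6138 and 7084. Epidermis markers summed to 4527 and 6885 FPKM (1 of 10 higher, 3 lower), neuron markers to 504 and 532 FPKM (1 of 10 lower) and germline markers to 739 and 529 FPKM (1 of 10 higher). Sperm markers summed to 186 and 49.5 FPKM (4 of 4 compared genes higher). Their part in the GST ratios was not tested.

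Set directly against each other, nuo-6 and daf-2 differed by member. Between nuo-6 and daf-2, 4 of 34 members were higher in nuo-6 and 10 lower, beside 21.9% and 15.5% of all 11188 compared genes, in a comparison added after the values were seen. It uses the same nuo-6 and daf-2 values as the comparisons with WT. The 4 were gst-22 (17.3-fold), gst-38 (5.97-fold), gsto-1 (5.36-fold) and gst-6 (2.19-fold). Without genes that share a listed locus, 2 of these, gst-38 and gst-6, were left. The 10 lower members were led by gst-15 (6.12-fold), gst-31 (5.79-fold), gst-41 (5.3-fold) and gst-10 (4.13-fold), followed by gst-29, gst-20, gst-3, gst-1, gst-5 and gst-16. gst-5 had 68.7, 57.2, 254, 72.8, 82.1 and 84 FPKM, high in daf-2 and within 1.5-fold of WT in the other 4 genotypes. All 10 germline, 10 oocyte, 7 adult and 4 compared sperm markers were higher in nuo-6 than in daf-2, and 8 of 10 neuron markers were lower. Intestine markers were higher for 3 of 10 and epidermis markers for 4 of 10, and 0 of 10 muscle markers were called. The part of these markers in the GST ratios was not tested.

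**Figure D2:**
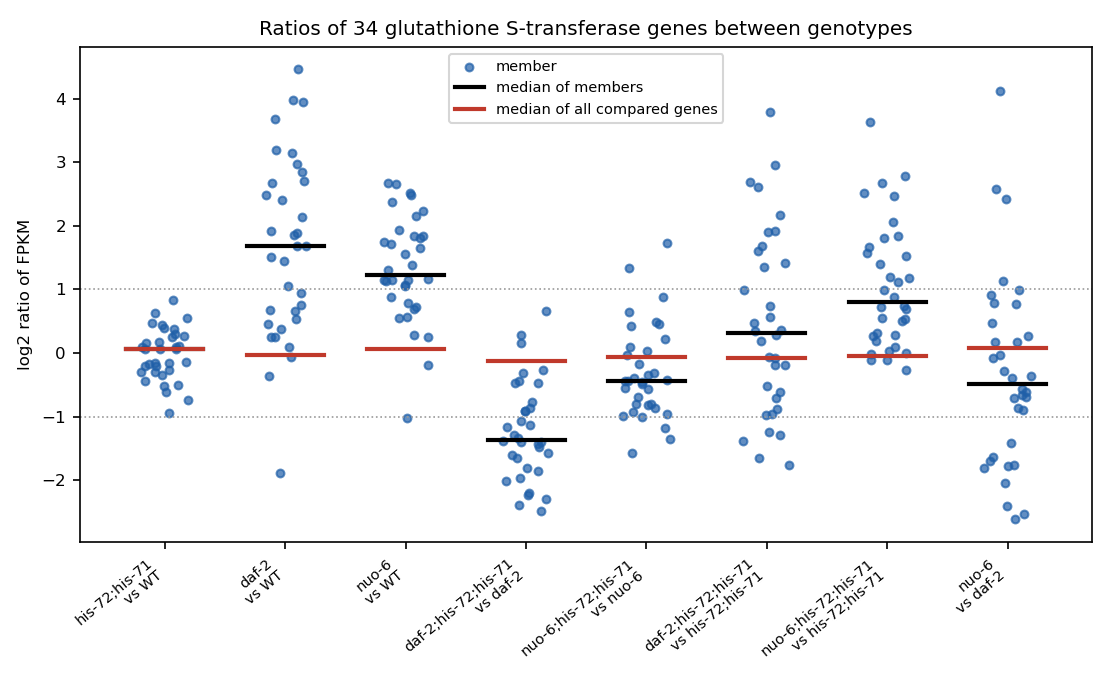
Log2 ratio of FPKM in 8 comparisons of genotypes, 1 blue point per compared member (34 in each), with the median of the members in black and the median of all compared genes in red. Dotted lines mark a ratio of 2 in either direction. The members' median stands at 1.68 in daf-2 and 1.23 in nuo-6 against WT and at -1.36 in the daf-2 triple mutant against daf-2.

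In the H3.3 double mutant no member met the 2-fold rule against WT. Between the H3.3 double mutant and WT, 0 of 34 members were higher and 0 lower, beside 0.777% and 0.849% of all 11193 compared genes. The members' log2 ratios ran from -0.94 (gst-19) to 0.83 (gstk-2), with a median of 0.06 and a median of 0.07 over all genes. With a ratio of 1.5 in place of 2, 2 members were higher (gstk-2 and gst-24) and 0 lower. The absence of a call is no evidence of equal levels, since the spread between replicates is unknown.

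In the daf-2 background the same alleles went with lower GST levels. Between the daf-2 triple mutant and daf-2, 22 of 34 members were lower and 0 higher, beside 11.5% and 14.9% of all 11188 compared genes. The daf-2 values are the same as in the comparison with WT, so these counts are not separate from the counts there. Among the 22, gst-31 and gst-35 passed the mean filter only through daf-2. The median log2 ratio was -1.36 over the members and -0.13 over all genes, and 31 of 34 members had a ratio below 1. gst-31 was 5.59-fold lower, gst-15 5.22-fold, gst-12 4.89-fold, gst-20 4.68-fold, gst-24 4.58-fold and gst-19 4.03-fold. gst-12 had 4.33, 4.61, 15.6, 3.2, 9.54 and 31.6 FPKM and gst-24 had 17.6, 27.2, 48, 10.5, 39.4 and 28.9 FPKM in the order given above. gst-15, gst-12, gst-20, gst-24 and gst-19 are neighbours on chromosome II. Among the abundant genes gst-10 was 3.93-fold lower, gst-1 2.78-fold, gst-7 2.69-fold and gst-4 2.61-fold. gst-26 (135, 161, 185, 50.9, 222 and 159 FPKM) was 3.64-fold lower and came out under its WT value. gst-3, gst-22 and gsto-3 had ratios above 1, none reaching 2. gst-29, gst-14, gstk-2 and gst-28 were between 1.2-fold (gst-28) and 1.38-fold (gst-29) lower, short of the 2-fold line.

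Markers of the germ line, of oocytes, of adulthood and of body tissues moved with this difference. The 10 oocyte markers summed to 23.7 FPKM in daf-2 and 2625 in the daf-2 triple mutant (79.6 in WT), with 10 of 10 higher. The 10 germline markers summed to 132 and 970.1 FPKM, again with 10 of 10 higher, and the 7 adult markers to 6.30 and 6417 FPKM. Markers of 3 somatic tissues were lower in sum: intestine summed to 4913 and 2099 FPKM (4 of 10 lower), muscle to 6323 and 3684 (3 of 10) and neurons to 955 and 583 (2 of 10), with median log2 ratios of -0.83, -0.87 and -0.89. Epidermis markers summed to 2562 and 2431 FPKM (3 of 10 higher) and sperm markers to 1.26 and 26.8 FPKM (2 of 4 compared genes higher). No marker of these lists was at 0 in any genotype. With values scaled to equal sums per genotype, 13 of 35 members were lower and 1 higher, beside 3.20% and 25.2% of all genes. With values scaled to equal levels of the 40 somatic markers, a setting chosen after seeing the data, 10 of 34 were lower and 1 (gst-22) higher, beside 2.15% and 29.8% of all genes. The members' median log2 ratio was then -0.87 or -0.74, and that of all genes 0.34 or 0.50. The part of stage and tissue in the difference was not tested beyond these scalings.

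In the nuo-6 background the same alleles gave counts near those of all genes but a lower median ratio. Between the nuo-6 triple mutant and nuo-6, 2 of 34 members were higher and 4 lower, beside 6.55% and 12.9% of all 11197 compared genes. The nuo-6 values are those compared with WT above. The median log2 ratio was -0.44 over the members and -0.07 over all genes, and 24 of 34 members had a ratio below 1. With equal sums per genotype 4 of 35 were higher and 1 lower, beside 13.7% and 7.95% of all genes, again no more than the shares of all genes. With equal somatic markers 2 of 34 were higher and 5 lower, beside 6.15% and 13.4% of all genes. gst-12 was 3.31-fold and gst-14 2.52-fold higher. gst-14 had 5.08 FPKM in WT, 5.32 in the H3.3 double mutant, 27 in daf-2, 19.9 in the daf-2 triple mutant, 26.3 in nuo-6 and 66.2 in the nuo-6 triple mutant. gst-10 was 2.98-fold lower, gst-29 2.54-fold, gst-28 2.26-fold and gstk-2 2-fold, gst-28 having 34.1, 27.8, 40.4, 33.7, 76 and 33.7 FPKM. gst-10 was thus lower without H3.3 in both long-lived backgrounds, by 3.93-fold and 2.98-fold, and 1.13-fold lower in the WT background. gst-4 had nearly equal values in nuo-6 and its triple mutant, 212 and 226 FPKM. Oocyte markers summed to 458 FPKM in nuo-6 and 54.9 in the triple mutant, germline markers to 739 and 279 FPKM, and adult markers to 2707 and 9.26 FPKM, each the opposite direction to the daf-2 pair. Intestine markers summed to 8104 and 5837 FPKM, with a median log2 ratio of 0.08 and 1 of 10 lower, mtl-2 (1362 and 56.3 FPKM). Muscle markers summed to 6138 and 5415 FPKM, with a median log2 ratio of -0.13 and 0 of 10 called. Both medians were thus unlike those of the daf-2 pair. Neuron markers summed to 504 and 622 FPKM (4 of 10 higher) and epidermis markers to 4527 and 4657 FPKM (2 of 10 lower). Sperm markers summed to 186 and 20.7 FPKM (4 of 4 compared genes lower). Their part in the GST ratios was not tested.

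The effect of the daf-2 mutation can be read a second time in worms without H3.3, from values not used in the first reading. Between the daf-2 triple mutant and the H3.3 double mutant, 9 of 34 members were higher and 5 lower, beside 10.7% and 12.3% of all 11201 compared genes. The median log2 ratio was 0.31 over the members and -0.09 over all genes. With equal sums 11 of 35 were higher and 2 lower, beside 18.95% and 5.56% of all genes. With equal somatic markers 18 of 34 were higher and 1 lower, beside 33.4% and 3.09% of all genes. The 9 higher members were gst-29 (13.8-fold), gst-3 (7.78-fold), gst-15 (6.43-fold), gst-41 (6.13-fold), gst-10 (4.52-fold), gst-14 (3.74-fold), gst-4 (3.22-fold), gst-7 (3.03-fold) and gst-16 (2.54-fold). The 5 lower members were gst-22 (3.41-fold), gst-26 (3.16-fold), gst-24 (2.6-fold), gst-27 (2.45-fold) and gst-38 (2.37-fold). gst-24 was 2.72-fold higher in daf-2 than in WT and so differed in direction between the readings. Oocyte markers (10 of 10) and adult markers (7 of 7) were higher in the daf-2 triple mutant than in the H3.3 double mutant. Lower were 6 of 10 intestine, 8 of 10 epidermis (1 higher), 2 of 10 muscle and 4 of 4 compared sperm markers. Germline markers were higher for 3 of 10 and lower for 1, and 0 of 10 neuron markers were called. Their part in these and the following daf-2 ratios was not tested.

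Member by member, the daf-2 ratio was smaller without H3.3 than with it for 31 of 34 members, and at least 2-fold smaller for 25, beside 57.1% and 14.3% of all 11173 genes. It was at least 2-fold larger for 0 members and 15.5% of all genes. The 25 became 14 of 35 with equal sums, beside 5.87% of all genes, and 12 of 34 with equal somatic markers, beside 4.57% of all genes. gst-29, gst-3, gst-41 and gst-22 were among those near the line of equal ratios. For gst-29 the log2 ratio was 3.95 with and 3.79 without H3.3, and for gst-3 it was 3.14 and 2.96. For gst-20 it was 2.85 and 0.56, and for gst-12 1.85 and -0.53. The family thus held members with like daf-2 ratios in both readings and members without.

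For nuo-6, between the nuo-6 triple mutant and the H3.3 double mutant, 14 of 34 members were higher and 0 lower, beside 4.96% and 5.19% of all 11194 compared genes. The median log2 ratio was 0.80 over the members and -0.05 over all genes. gst-14 was 12.4-fold higher, gst-12 6.85-fold, gst-19 6.41-fold, gst-31 5.7-fold, gst-4 5.51-fold and gsto-1 4.18-fold. The other 8 had ratios between 2.26-fold (gst-13) and 3.58-fold (gst-7). Compared with the ratio with H3.3, the ratio without it was at least 2-fold smaller for 7 members and at least 2-fold larger for 4, beside 15.8% and 7.02% of all genes. Which count was larger depended on the scaling. With values scaled to equal median ratios they were 5 and 6 of 34, beside 13.4% and 8.92% of all genes. With equal sums they were 3 and 6 of 35, beside 11.1% and 11.98%. With equal somatic markers they were 10 and 3 of 34, beside 19.8% and 5.46%. gst-4 was alike in both readings, with log2 ratios of 2.49 and 2.46, and gst-10 was not, with 1.93 and 0.53. Of the markers, 9 of 10 germline, 3 of 10 oocyte and 4 of 4 compared sperm genes were lower in the nuo-6 triple mutant than in the H3.3 double mutant. Adult markers were lower for 2 of 7 and epidermis markers for 2 of 10. For intestine, neuron and muscle, 0 of 10 each were called. The part of these markers in the GST ratios was not tested.

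**Figure D3:**
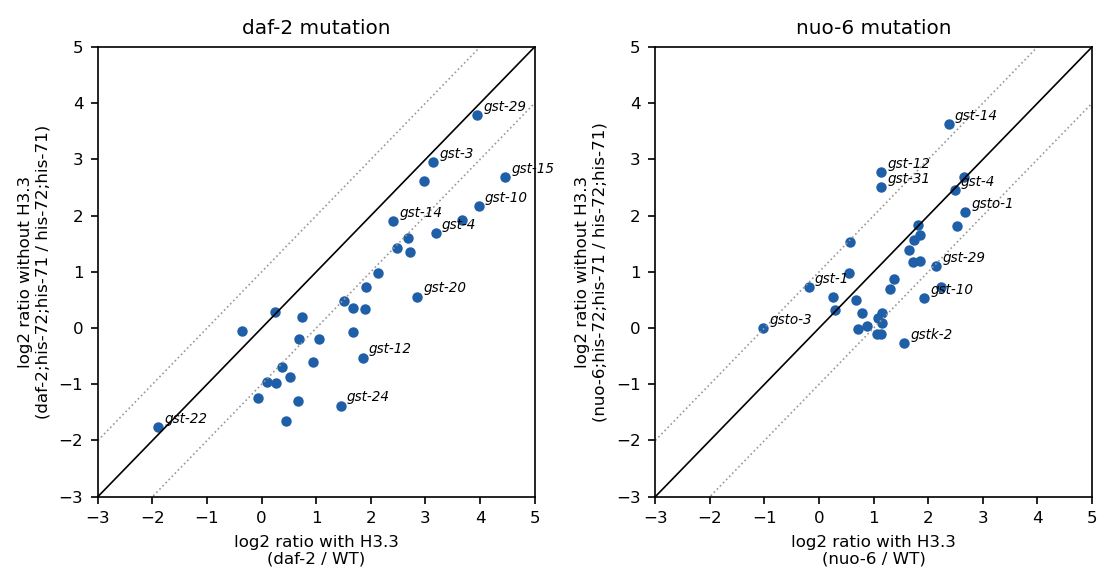
Log2 ratio of the daf-2 mutation (left) and the nuo-6 mutation (right) with H3.3 (horizontal) and without it (vertical) for the 34 compared members, 1 point each, from 4 genotypes that enter once each per panel. The solid line marks equal ratios and the dotted lines a 2-fold difference. In the left panel 31 of 34 points lie under the solid line and 25 at or under the lower dotted line. In the right panel 23 of 34 lie under the solid line, beside 57.5% of all 11173 genes with a smaller nuo-6 ratio without H3.3.

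The small classes behaved unlike each other. Both kappa genes, whose products act in mitochondria and peroxisomes in other animals, were higher in both long-lived mutants. gstk-1 had 28.1, 31.7, 89.6, 40.8, 58.5 and 29.5 FPKM, and gstk-2 had 5.92, 10.5, 26, 20.8, 17.5 and 8.72 FPKM. Of the omega genes, gsto-1 was higher in nuo-6, gsto-3 was lower there, and gsto-2 stayed between 0.291 and 2.38 FPKM. gst-42 is the counterpart of human GSTZ1, the maleylacetoacetate isomerase of tyrosine breakdown, and had 64.1, 68.5, 205, 65.1, 110.2 and 82.5 FPKM. It was 3.19-fold higher in daf-2 than in WT, and its value in the daf-2 triple mutant was close to that in WT. gst-43, also of the zeta class, had 21.1, 25.9, 22.6, 13.3, 39 and 26.4 FPKM and was called in none of the 8 comparisons.

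Position was not used to choose the members. As positioned in the deposited files, 26 lie on chromosome II, 9 on V, 5 on IV, 4 on III, 3 on X and 2 on I, and 25 lie in 4 runs of neighbours at most 20 kb apart. The genome build of the tables is not given in the sources used here. All 49 members were found on the same chromosome in the WBcel235 annotation, where all are protein-coding, and 12 had an identical start or end. The run from gst-20 to gst-18 covers 22.7 kb of chromosome II from 13608184 to 13630887, with 9 genes that are all on the minus strand in WBcel235. Of its 7 compared members, 7 were higher in daf-2 and 7 in nuo-6 against WT, and 5 were lower in the daf-2 triple mutant than in daf-2. Within it gst-20, gst-24, gst-15 and gst-16 were highest in daf-2, gst-19 in nuo-6, and gst-14, gst-12, gst-17 and gst-18 in the nuo-6 triple mutant. gst-17 had 1.12, 1.62, 1.83, 0.595, 1.85 and 8.2 FPKM and gst-18 1.43, 1.88, 2.55, 0.562, 2.6 and 9.1 FPKM. These genes, which overlap in WBcel235, were under the mean filter, and their nuo-6 triple mutant values were 4.42-fold and 3.5-fold above nuo-6.

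A second run of 9, gst-26 to gst-35, covers 21.6 kb of chromosome II from 15163807 to 15185385. Of its 7 compared members 4 were higher in daf-2 (gst-29, gst-39, gst-31, gst-35), and 4 were so in nuo-6 (gst-27, gst-28, gst-29, gst-39). gst-26, gst-27 and gst-28 were highest in nuo-6, while gst-29, gst-39, gst-31 and gst-35 were highest in daf-2. The third run, gst-6 to gst-9 on chromosome II from 4879884 to 4893574, had 1 of 3 compared members higher in daf-2 (gst-7) and 3 of 3 in nuo-6. In the run of gst-3, gst-2 and gst-4 on chromosome IV, gst-3 and gst-4, the compared genes, were higher in each long-lived mutant. Neighbouring GST genes can be alike in sequence. How fragments that match several genes were counted is not given in the sources used here, so the values of neighbours are uncertain. The same holds for gst-36, gst-5, gsto-1, gst-22, gst-9 and gst-25, which share a listed locus with a gene of another family, and for gst-4, which overlaps dhs-12 on the same strand in WBcel235.

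**Figure D4:**
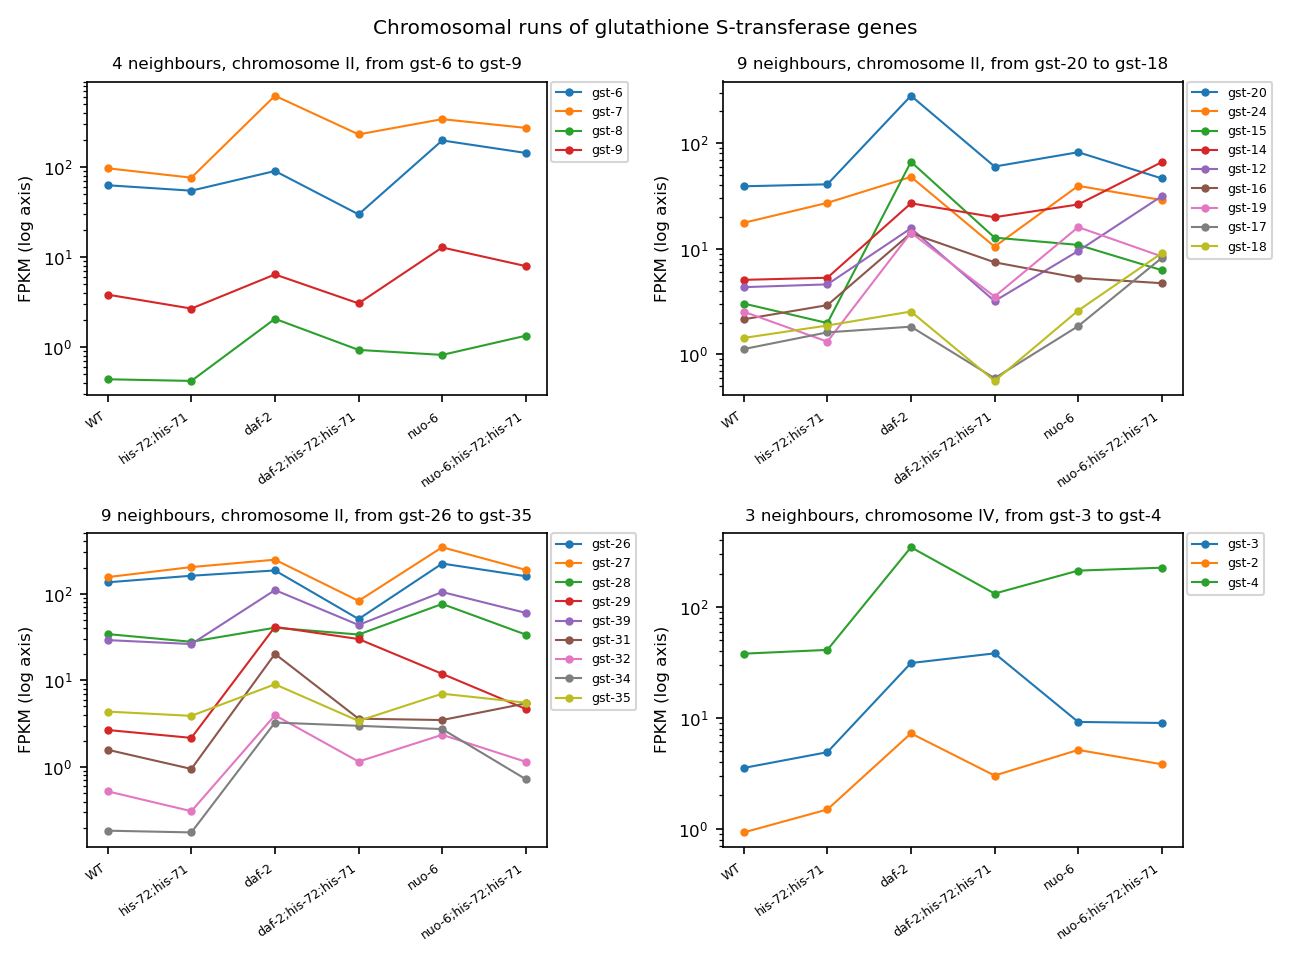
FPKM (log axis) of the genes in the 4 chromosomal runs across the 6 genotypes, 1 line per gene. The lines join genotypes to guide the eye and mark no order. In the run from gst-20 to gst-18 the highest point is in daf-2 for 4 genes and in the nuo-6 triple mutant for 4, and in the gst-3 to gst-4 run gst-3 stays high in the daf-2 triple mutant where gst-4 and gst-2 are lower.

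The members not yet given in full were gst-36 (130.0, 112, 169, 69, 191 and 222 FPKM), gst-39 (29.1, 26.2, 109.8, 43.5, 104.3 and 59.9), gst-9 (3.83, 2.68, 6.42, 3.06, 12.8 and 7.95), gst-16 (2.15, 2.93, 14.1, 7.45, 5.3 and 4.73), gst-35 (4.36, 3.89, 8.99, 3.4, 7.01 and 5.52) and gst-40 (4.16, 5.47, 6.66, 4.78, 5.06 and 6.8). gst-40 was called in none of the 8 comparisons. Of the 15 members under the mean filter, gst-21, gst-11, gst-33 and gst-23 kept between 1.94 and 7.68 FPKM throughout. gst-2 had 0.928, 1.49, 7.25, 3.02, 5.14 and 3.82 FPKM and showed the same order as its neighbour gst-4 for WT, nuo-6 and daf-2. gst-34, gst-32, gst-8, gst-30, gst-44, gst-25 and gst-37 stayed at or under 3.96 FPKM. gst-34 stood at 0.184 FPKM in WT and reached 3.26 FPKM in the daf-2 mutant, and ratios against such low values are imprecise. Of the 17 members with an anatomy term in the deposited annotation, 11 list the intestine.

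Genes that act with the GSTs were read by the same rule. Of the 3 genes that make or recycle glutathione, 0 were called in any of the 8 comparisons. gcs-1, the rate-limiting enzyme of glutathione synthesis and itself a SKN-1 target, had 53.4, 59.8, 54.3, 42.9, 67.5 and 59.9 FPKM in the order given above. Its daf-2 and nuo-6 values were 1.02-fold and 1.26-fold those of WT, where gst-4 was 9.1-fold and 5.6-fold higher. Of 8 SKN-1 regulators, skn-1 itself included, 0 were called in any comparison, and skn-1 had 92.8, 81.2, 152, 117, 81.3 and 116 FPKM. wdr-23, whose product promotes breakdown of SKN-1, had 46.8, 42.3, 64.7, 53.4, 40.6 and 49.3 FPKM. Of the glutathione peroxidases, which use glutathione to reduce peroxides, 2 of 6 compared genes were higher in daf-2, gpx-6 (7.8-fold) and gpx-5 (2.32-fold). In nuo-6, gpx-7 (3.73-fold) and gpx-6 (2.39-fold) were higher and gpx-3 (3.04-fold) lower. Between the daf-2 triple mutant and daf-2, gpx-6 (4.55-fold), gpx-7 (3.06-fold) and gpx-1 (2.25-fold) were lower and 0 of 6 higher. Between the nuo-6 triple mutant and nuo-6, gpx-7 (3.06-fold) was lower as well and gpx-3 (3.22-fold) was higher.

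Of the 5 glutaredoxins, 1 was higher in nuo-6, glrx-5 (3.07-fold), the mitochondrial member that serves iron-sulfur cluster assembly in other species, and 0 in daf-2. Of the 6 compared mrp genes, whose products export glutathione conjugates, 0 were called in daf-2 and 1 was higher in nuo-6, mrp-3 (2.04-fold). Among 11 genes of DAF-16 and its regulators, the kinase genes pdk-1 (5.89-fold), akt-2 (2.81-fold) and akt-1 (2.62-fold) were higher in daf-2, and daf-16 itself had 71.3, 73.6, 139, 89, 71.4 and 104.4 FPKM.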

How the data were processed

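The authors deposited FPKM values for 20484 genes, 1 value per gene and genotype. A single file serves the 5 samples of each genotype, and how replicates were combined is not given in the sources used here. The submitters' processing notes list STAR, Cufflinks, Cuffdiff and FastQC, with no version. The genome build is not given in the sources used here. No counts or depths are given, so no interval could be computed. Members and gene lists were chosen with earlier results of these data known. Ratios were taken between the deposited FPKM values without a pseudocount or rescaling. Genes were compared where the mean over the 6 genotypes was at least 5 FPKM, and called at a ratio of 2 or more with the larger value at 5 FPKM or more. Of 120 genes in the lists, 119 were matched. Genes named in full were gst-4, gst-10, the gsto, gstk and zeta genes, the 6 most abundant members and up to 6 called members per direction and comparison, besides others added after their values were seen. The call step was run on WT values with made changes and no noise. This checks that the rule is applied, not how often calls are false. Alternatives changed the ratio (1.5 or 3), the filter (20 FPKM or none), the scaling, a pseudocount of 1 and genes sharing a locus. Python 3.11.15, pandas 2.3.3 and numpy 2.4.6 were used. Sequences of the genes were not used here. One gene of the lists is not reported here.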

Additional observations from a re-analysis of the deposited data

Results flagged for a closer look

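The same alleles of his-72 and his-71 went with opposite differences of gst-12 in the long-lived backgrounds. Its log2 ratio was -2.29 in the daf-2 triple mutant against daf-2 and 1.73 in the nuo-6 triple mutant against nuo-6. It had 15.6 and 3.2 FPKM in the first pair and 9.54 and 31.6 FPKM in the second. Under the 3 other scalings and with a pseudocount of 1 the first ratio ran from -2.26 to -1.67 and the second from 1.63 to 2.08.

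gst-24 differed in direction between the daf-2 ratio with H3.3 and that without. Its log2 ratio was 1.45 in daf-2 against WT and -1.38 in the daf-2 triple mutant against the H3.3 double mutant. The second ratio was -0.99 with equal sums per genotype and -0.62 with equal somatic markers, short of 2-fold. Each genotype has 1 value, so neither difference between backgrounds was tested.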

How the results depend on the processing

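No paired analysis was possible because the tables hold 1 value per genotype and none per replicate, and no replicate could be left out for the same reason. Depth is unknown, which limits low values most. Of 116 single calls of members, 29 were lost under at least 1 of the 3 other scalings or a pseudocount of 1, and 0 changed direction. The alternatives for nuo-6 against daf-2, for the ratios with and without H3.3 and for scaling to somatic markers were chosen after seeing the data. The counts below moved by more than 1.5 times, and where no other cause is plain from the setting the cause was not tested.

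With a ratio of 1.5, members higher in the H3.3 double mutant than in WT became 2 and in the daf-2 triple mutant than in daf-2 became 1. The nuo-6 triple mutant against nuo-6 gave 4 higher and 12 lower, the daf-2 triple mutant against the H3.3 double mutant gave 10 lower, and nuo-6 against daf-2 gave 8 higher and 16 lower. The nuo-6 ratio was smaller without H3.3 for 15. With a ratio of 3, nuo-6 against WT gave 14 higher and 0 lower, the daf-2 triple mutant against daf-2 11 lower, and the nuo-6 triple mutant against nuo-6 1 higher and 0 lower. The daf-2 triple mutant against the H3.3 double mutant gave 2 lower and the nuo-6 triple mutant against it 9 higher. The daf-2 ratio was smaller without H3.3 for 9, the nuo-6 ratio smaller for 1 and larger for 1.

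With a mean of at least 20 FPKM, 21 members were compared in place of 34. The counts under this filter are out of 21, so they are smaller partly because fewer genes were compared. Higher members became 11 of 21 in daf-2 and 14 of 21 in nuo-6 against WT. They became 4 in the daf-2 and 7 in the nuo-6 triple mutant against the H3.3 double mutant. The shares of all genes under this filter are not given here. The nuo-6 triple mutant against nuo-6 gave 1 higher and 2 lower, nuo-6 against daf-2 gave 4 lower, and the nuo-6 ratio was larger without H3.3 for 2. The members' median log2 ratio in the daf-2 triple mutant against the H3.3 double mutant turned from 0.31 to -0.057. With no filter the nuo-6 triple mutant against nuo-6 gave 4 higher, and ratios larger without H3.3 numbered 1 for daf-2 and 7 for nuo-6. With a pseudocount of 1, nuo-6 against WT gave 0 lower and the nuo-6 ratio was larger without H3.3 for 2. Without genes sharing a locus, daf-2 against WT gave 0 lower and nuo-6 against daf-2 gave 2 higher.

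With equal sums, the daf-2 triple mutant against daf-2 gave 1 higher and 13 lower, the nuo-6 triple mutant against nuo-6 4 higher and 1 lower, and the daf-2 triple mutant against the H3.3 double mutant 2 lower. Ratios smaller without H3.3 numbered 14 for daf-2 and 3 for nuo-6. With equal somatic markers, nuo-6 against WT gave 0 lower and the daf-2 triple mutant against daf-2 1 higher and 10 lower. The daf-2 triple mutant against the H3.3 double mutant gave 18 higher and 1 lower, and the daf-2 ratio was smaller without H3.3 for 12. With equal median ratios none of these counts moved by more than 1.5 times.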
